A study of Mus musculus with 40 samples.

Results

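Lipid-associated macrophages are macrophages of fat tissue that take up and digest lipid, and a small set of genes marks them. A set of 10 such genes, of the 52636 in the count table, was described over the 40 mice of a brown adipose tissue experiment. The genes were Trem2, Cd9 and Itgax (surface proteins), Gpnmb and Atp6v0d2 (lysosome-linked proteins), Acp5 and Ctsk (lysosomal enzymes also used by osteoclasts), and Spp1, Mmp12 and Cd5l (secreted proteins). The set was chosen from its values in these libraries, since Atp6v0d2 and Gpnmb were higher 7 d after blockade of the Notch ligands Jag1 and Jag2. That contrast is therefore described here without a test. All 10 genes passed the filter on low counts, as did 17079 genes in all.

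The mice were male C57BL/6 animals of at least 10 weeks, with an upper age of 12 weeks in the series text and 14 weeks in the sample text. Each of the 8 groups held 5 mice and every mouse received 1 intraperitoneal antibody injection. Control mice received an anti-ragweed isotype antibody at 40 mg/kg, and Jag antibody mice received anti-Jag1 and anti-Jag2 at 20 mg/kg each. Brown fat was collected at 15 h, 5 d or 7 d after the injection. In a further pair of groups collected at 7 d, control and Jag antibody mice also received thyroid hormone, given daily from day 2 as T4 at 1 ug per g and T3 at 0.05 ug per g body weight. The antibodies act on the whole animal, so no cell type was targeted, and the labels do not say whether mice shared a litter or cage.

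In lipid-laden tissue, TREM2 on the macrophage surface binds lipids and apoptotic material and helps switch on this gene set. Engulfed material is digested in acidified lysosomes, where the vacuolar proton pump (v-ATPase) supplies the acid. Transcription factors of the MITF/TFE family are known to drive many lysosomal genes, and in osteoclasts, which are bone-resorbing relatives of macrophages, they drive Acp5 and Ctsk. In brown fat, macrophages are a minor population beside adipocytes.

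The libraries held 12217623 to 36511893 counts, with a median of 18949808. Resident macrophage genes were detected: Adgre1, which encodes the F4/80 antigen, stood at 4.31 to 102 CPM (counts per 1000000 counts of the scaled library) and Cd68 at 7.46 to 205 CPM. Of the genes that define osteoclasts, cells that make much Acp5 and Ctsk, Calcr had 0 counts in 27 of 40 mice and at most 15, Dcstamp had at most 3 counts in 22 mice, and Ocstamp had a median of 16 counts. Skeletal muscle genes varied widely, with a summed level of 0.877 to 175752 CPM, and all 5 control mice at 5 d stood above all 5 Jag antibody mice of that time. The lowest control sum was 1018 CPM and the highest Jag sum 43.8 CPM. Fewer cells of a type and less RNA per cell cannot be told apart in such bulk tissue.

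The promoters are shown for 3 members, because Gpnmb and Mmp12 had high levels in the same groups while Acp5 went the other way. The windows cover the 250 bases upstream of a RefSeq start site (GRCm38.p6). RefSeq gave 13 start sites for 9 of the 10 members. They were searched on both strands for motifs bound by MITF/TFE proteins: the palindromic E-box CACGTG, the sequence TCATGTG known as the M-box, and the related sequence TCACATG. Capitals mark the 8 bases TCACATGA, in which the last of these overlaps an M-box read on the other strand.
Gpnmb, chr6:49036268-49036517, plus strand: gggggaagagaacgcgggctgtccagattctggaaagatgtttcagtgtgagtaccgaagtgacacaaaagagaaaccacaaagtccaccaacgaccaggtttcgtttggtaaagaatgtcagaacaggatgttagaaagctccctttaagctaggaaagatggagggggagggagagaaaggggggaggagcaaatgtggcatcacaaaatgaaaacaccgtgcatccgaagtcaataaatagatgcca
Mmp12, chr9:7347124-7347373, plus strand: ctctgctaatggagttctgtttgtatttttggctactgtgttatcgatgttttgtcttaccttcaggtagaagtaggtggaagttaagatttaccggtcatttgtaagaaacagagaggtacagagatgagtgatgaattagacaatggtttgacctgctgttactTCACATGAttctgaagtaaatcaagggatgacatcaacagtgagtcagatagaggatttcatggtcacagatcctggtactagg
Acp5, chr9:22130599-22130848, minus strand: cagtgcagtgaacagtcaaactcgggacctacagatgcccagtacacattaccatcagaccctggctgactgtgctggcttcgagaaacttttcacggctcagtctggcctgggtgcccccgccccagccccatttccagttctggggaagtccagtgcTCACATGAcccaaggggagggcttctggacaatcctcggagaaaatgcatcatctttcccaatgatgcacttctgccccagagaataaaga
These Mmp12 and Acp5 windows were the 2 of the 13 that held a match, with TCACATG beginning 84 and 91 bases upstream of the start. The Gpnmb window held none of the 3 motifs. The Mmp12 and Acp5 windows shown lie inside the annotated genes. Those at the gene starts, chr9:7344147-7344396 for Mmp12 and chr9:22135747-22135996 for Acp5, held none of the 3. Among 32851 windows of the same length over all genes, CACGTG was found in 6.02%, TCATGTG in 3.25%, TCACATG in 3.50% and any of the 3 in 11.5%. A match describes these letters only.

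By annotation (GENCODE M21, GRCm38), Atp6v0d2 (ENSMUSG00000028238) lies on the minus strand at chr4:19876841-19922605 and Gpnmb (ENSMUSG00000029816) on the plus strand at chr6:49036546-49070929. Trem2 (ENSMUSG00000023992) lies at chr17:48346401-48354147, Itgax (ENSMUSG00000030789) at chr7:128129547-128150657 and Cd9 (ENSMUSG00000030342) at chr6:125460266-125494791. Spp1 (ENSMUSG00000029304) lies at chr5:104435118-104441050, Mmp12 (ENSMUSG00000049723) at chr9:7344381-7369499 and Cd5l (ENSMUSG00000015854) at chr3:87357881-87371073. Acp5 (ENSMUSG00000001348) lies at chr9:22126727-22135711 and Ctsk (ENSMUSG00000028111) at chr3:95499256-95509362. Acp5 overlaps the non-coding gene 6530413G14Rik on the opposite strand, and without a stated strand setting their reads cannot be told apart. That gene had 16 to 113 counts per library against 1316 to 7930 for Acp5.

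The members differed widely in level. On the scale of CPM per kilobase of exon, which corrects for gene length, the median over 40 mice was 84.1 for Acp5, 10.3 for Cd9 and 8.83 for Ctsk. Gpnmb had a median level of 3.07 and Spp1 one of 2.93 CPM per kilobase. Trem2 stood at 0.915, Atp6v0d2 at 0.575, Itgax at 0.539, Mmp12 at 0.353 and Cd5l at 0.207 CPM per kilobase. For comparison, the macrophage gene Cd68 had a median of 18.0 and Adgre1 one of 8.38, and Atp6v0d1, the widely expressed version of the Atp6v0d2 pump subunit, one of 37.8 CPM per kilobase. The median of Acp5, the tartrate-resistant acid phosphatase, was above the medians of Cd68 and Adgre1. Which cells made it was not tested.

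Atp6v0d2 had its highest group medians in the 2 hormone groups, at 8.09 CPM in control and 6.98 CPM in Jag antibody mice. Control mice at 15 h followed at 3.13, Jag antibody mice at 7 d at 1.95, control mice at 5 d at 1.08, Jag antibody mice at 5 d at 0.746 and at 15 h at 0.551 CPM. Control mice at 7 d without hormone were lowest at 0.287 CPM. Gpnmb also ended with this group, at 5.27 CPM, and had its highest medians of 64.4 and 51.9 CPM in the hormone-treated Jag antibody and control mice. Acp5 was ordered otherwise: control mice at 7 d had the highest median of 313 CPM and hormone-treated Jag antibody mice the lowest of 97.2 CPM. For each of the 10 members, none of the 7 pairs of neighbouring groups in such an order was free of overlap between mice.

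**Figure D1:**
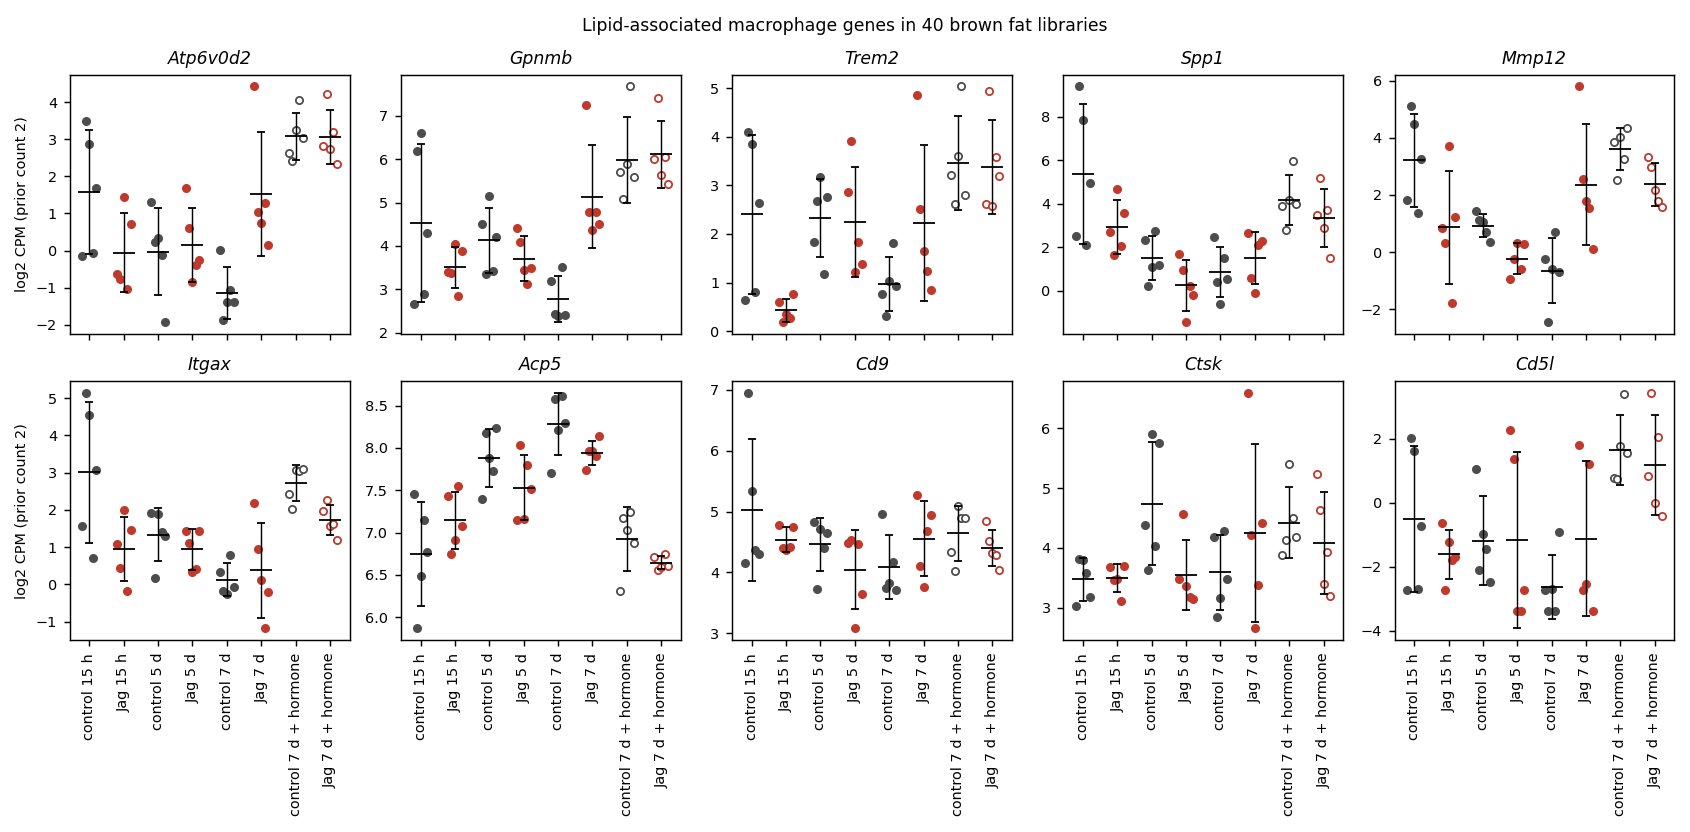
Level of each gene by mouse, as log2 CPM (prior count 2) on the vertical axis, for 8 groups of 5 mice; grey is control antibody, red is Jag antibody, open symbols are hormone-treated mice, and bars show the mean and SD. Atp6v0d2 and Gpnmb are low in control mice at 7 d and high in both hormone groups, and Acp5 is highest in control mice at 7 d and lower in both hormone groups.

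At 7 d without hormone, the contrast that chose the set, Atp6v0d2 stood at 0.907, 0.176, 0.285, 0.38 and 0.287 CPM in the control mice. In the Jag antibody mice, listed from mouse 6 to mouse 10, it stood at 21.4, 1.95, 1.58, 2.35 and 1.02 CPM. All 5 Jag antibody mice were above all 5 control mice, with 1 of them, mouse 6, far above the rest. Gpnmb, a transmembrane glycoprotein of lysosomes, stood at 9.02, 5.27, 5.13, 11.4 and 5.21 CPM in control and at 152, 27.3, 20.5, 27.4 and 22.8 CPM in Jag antibody mice. Again the groups did not overlap and mouse 6 was highest. These 2 of 10 members were those with groups fully apart and Jag antibody mice higher, and of all genes 1.72% had that pattern; since this contrast chose the genes, nothing is read from the count.

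Mmp12, macrophage elastase, came next in that contrast, with 0.747, 0.0878, 0.57, 1.52 and 0.526 CPM in control and 55.6, 5.79, 3.32, 2.83 and 0.969 CPM in Jag antibody mice. Of the Jag antibody values 4 lay above every control value, and 0.969 CPM lay within the control range. Fitted differences (log2 fold change, Jag antibody minus control) were 4.37 for Mmp12, 3.74 for Atp6v0d2, 3.05 for Cd5l, 2.81 for Gpnmb and 2.09 for Trem2. They were 1.25 for Ctsk, 0.73 for Itgax, 0.62 for Spp1, 0.48 for Cd9 and -0.37 for Acp5, with a median over the 10 of 1.67 against 0.05 over all genes. Without Jag antibody mouse 6 the differences were 2.28 for Mmp12, 2.02 for Atp6v0d2, 1.78 for Gpnmb, 1.97 for Cd5l and 0.69 for Trem2. They were then 0.13 for Ctsk, 0.29 for Spp1, 0.27 for Cd9, -0.04 for Itgax and -0.32 for Acp5. With the resident macrophage score, explained next, as a covariate they were 2.25 for Atp6v0d2, 1.72 for Gpnmb, 0.68 for Trem2, 0.98 for Cd5l and -0.24 for Spp1. Mouse 6 also had the highest resident macrophage score of its group (6.21, the mean log2 CPM of Adgre1, Csf1r, C1qa, C1qb, C1qc, Mrc1, Cd68 and Mertk) and the highest muscle score (12.3, the same measure over 8 muscle genes). With the muscle score as a covariate the differences were 3.60 for Atp6v0d2 and 2.75 for Gpnmb.

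The resident macrophage score at 7 d averaged 4.18 ± 0.40 (SD, n = 5) in the control group and 4.74 ± 0.84 (SD, n = 5) in the Jag antibody group, and the ranges overlapped. Relative to this score, Gpnmb stood at -1.39 ± 0.28 in control and 0.39 ± 0.44 in Jag antibody mice (log2, SD, n = 5 each). The highest control value was -1.14 and the lowest Jag antibody value -0.10. These mice chose the set, so the values on this scale are a description too. Atp6v0d2 relative to the score stood at -5.32 ± 0.60 in control and -3.21 ± 0.96 in Jag antibody mice, and these ranges overlapped.

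**Figure D2:**
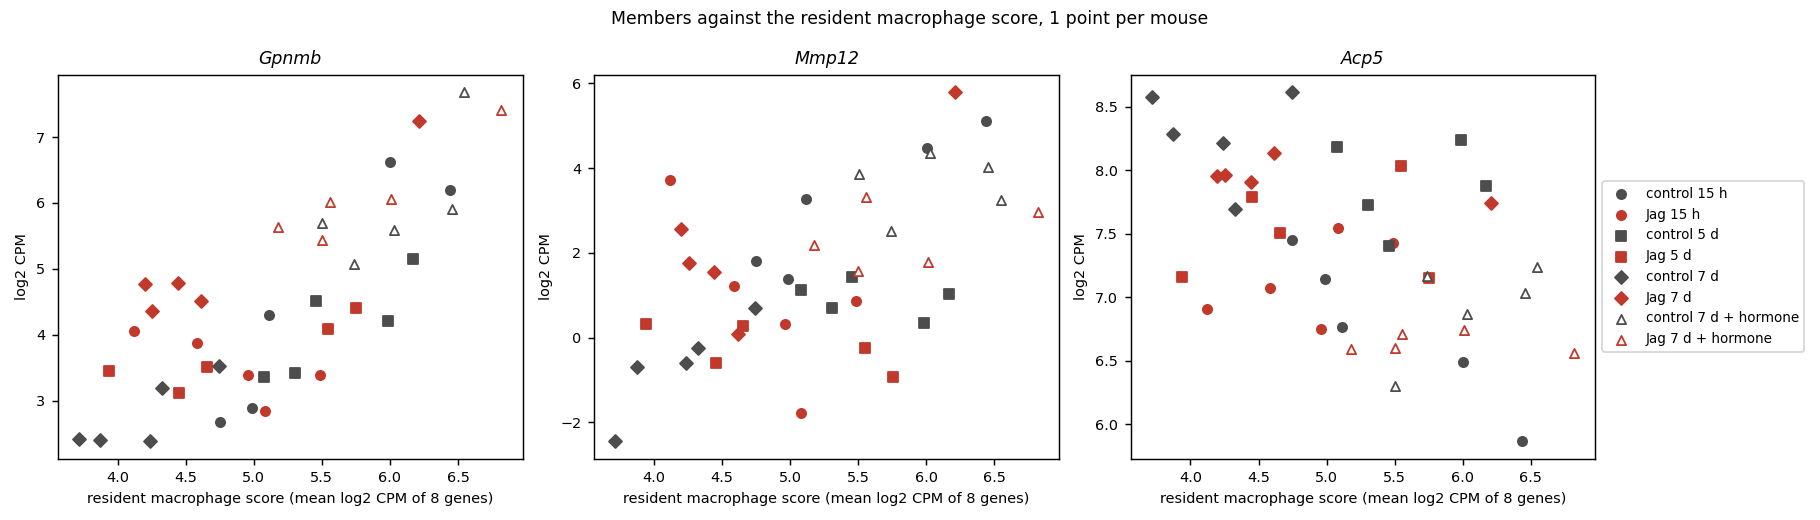
Level of Gpnmb, Mmp12 and Acp5 (log2 CPM, vertical axis) against the resident macrophage score (mean log2 CPM of 8 genes, horizontal axis), 1 point per mouse, with symbols for the 8 groups. Gpnmb is higher where the score is higher, the 5 Jag antibody mice at 7 d lie above the control mice of that time, 4 of them at scores within the control range and 1 at 6.21, and Acp5 is lower in mice with high scores.

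Among control antibody mice, those given thyroid hormone differed from those without it in most members. Of the 8 members tested 5 rose, Acp5 fell, and Cd9 and Ctsk were not called. Over all 17079 genes 20.3% rose and 22.9% fell in this comparison, and the median log2 fold change was 2.75 over the 8 members against 0.04 over all genes. Atp6v0d2 and Gpnmb share the untreated control mice with the contrast that chose them and are given as values only. The 8 tested members are compared with the same untreated mice. After subtracting group means, their Spearman's rho with Gpnmb over the 40 mice was 0.62 for Mmp12 to 0.81 for Itgax, and -0.37 for Acp5. Their tests are therefore not independent of the choice.

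Mmp12 stood at 0.747, 0.0878, 0.57, 1.52 and 0.526 CPM in untreated and at 14.4, 5.64, 16.3, 9.42 and 20.3 CPM in hormone-treated control mice. The groups did not overlap, and the log2 fold change was 4.32 (SE 0.96, adjusted p = 0.000649, edgeR's quasi-likelihood test with Benjamini-Hochberg adjustment over all genes, used throughout). Itgax, which encodes CD11c, stood at 1.17, 0.79, 0.741, 1.65 and 0.861 CPM without and at 5.29, 3.98, 8.29, 8.16 and 8.48 CPM with hormone. Every treated mouse was above every untreated mouse, and the fitted log2 difference was 2.74 (SE 0.62, adjusted p = 0.000674 in edgeR).

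Trem2, the lipid receptor, stood at 1.6, 1.14, 1.94, 3.42 and 1.82 CPM without and at 9.13, 6.06, 12.0, 32.7 and 6.84 CPM with hormone. It rose by 2.77 on the log2 scale (SE 0.74, adjusted p = 0.00323 in edgeR), and the groups did not overlap. Spp1, which encodes the secreted protein osteopontin, stood at 5.39, 1.23, 0.57, 2.79 and 1.34 CPM without and at 15.0, 6.91, 17.7, 63.4 and 16.0 CPM with hormone. It rose by 3.39 (SE 1.03, adjusted p = 0.00842 in edgeR), again without overlap. Cd5l, a secreted inhibitor of macrophage apoptosis, had 0 counts in 2 of the untreated mice and at most 0.431 CPM in the others. With hormone it stood at 1.61, 1.58, 3.33, 10.5 and 2.85 CPM, and the fitted log2 fold change of 4.85 (SE 1.48, adjusted p = 0.00867 in edgeR) rests on these low counts.

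Acp5 went the other way. It stood at 208, 383, 297, 393 and 313 CPM without hormone and at 78.9, 144, 131, 151 and 117 CPM with hormone, so that the groups did not overlap. It fell by 1.36 on the log2 scale (SE 0.23, adjusted p = 4.02e-05 in edgeR). Ctsk, the collagen-degrading cathepsin K, had a log2 fold change of 0.84 (adjusted p = 0.19 in edgeR) and Cd9, a tetraspanin, one of 0.53 (adjusted p = 0.273 in edgeR). With corrections for gene length and GC content both passed, at 1.49 for Ctsk (adjusted p = 0.02 in edgeR) and 1.02 for Cd9 (adjusted p = 0.0387 in edgeR).

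Atp6v0d2 with hormone stood at 6.1, 5.21, 9.36, 16.6 and 8.09 CPM, above all 5 untreated control mice, and Gpnmb at 51.9, 33.7, 59.7, 206 and 48.1 CPM, likewise above all. Their fitted log2 fold changes, given without a test, were 4.42 and 3.48. Low values in these untreated mice entered the choice of both genes, so nothing is read from their separation. Of the other 8 members, 5 had every hormone-treated control mouse above every untreated one, a pattern that 14.6% of all genes had. These 8 are set against the same untreated mice, so this count is not independent of the choice either.

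**Figure D3:**
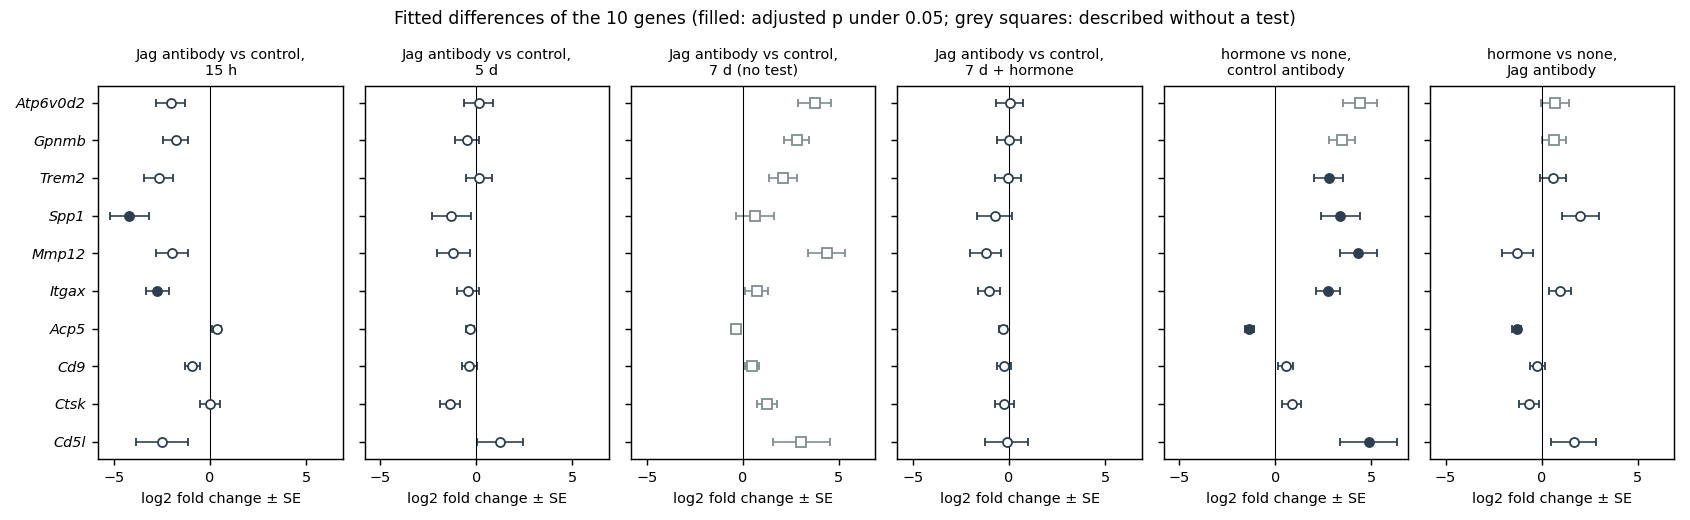
Fitted log2 fold change with its standard error for each gene (rows) in 6 comparisons (panels); filled circles passed the adjusted p threshold of 0.05, open circles did not, and grey squares are described without a test. In control antibody mice hormone goes with 5 filled points to the right and Acp5 to the left, and in Jag antibody mice Acp5 is the only filled point.

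Genes of macrophages at large, other blood cell types and endothelium were also called in this comparison. Of 13 resident macrophage genes tested, 10 rose, among them Adgre1 by 2.97 (adjusted p = 0.000123), Cd68 by 2.70 (adjusted p = 0.000712) and Mrc1 by 2.53 (adjusted p = 0.000291, all edgeR). The list's median log2 fold change was 2.28. The 15 resident genes summed to 148 to 339 CPM without and 437 to 888 CPM with hormone. Of 9 monocyte and neutrophil genes 5 rose in edgeR, and DESeq2 called 5 and limma 1 of them higher. Among the risen genes with a mean of at least 1 log2 CPM in these mice, Plac8 (3.43), Ccr2 (3.23) and Itgam (2.66) changed most. Those not called in edgeR were S100a8 (-0.23), S100a9 (-0.73), Csf3r (1.68) and Cxcr2 (0.93). Of 5 endothelial genes Cdh5 (1.48), Kdr (0.97) and Pecam1 (0.70) rose and Emcn (-1.08) fell, and of 8 dendritic cell genes 5 rose. Of 9 lymphocyte genes 0 were called in edgeR, DESeq2 or limma, and 0 had an unadjusted p under 0.05 in edgeR. The 9 monocyte and neutrophil genes summed to 6.83 to 29.4 CPM without and 49.7 to 131 CPM with hormone. Of 8 macrophage growth factor and chemokine genes, Csf1 (1.69) and Il34 (1.17), both ligands of the receptor encoded by Csf1r, rose in edgeR, and DESeq2 and limma each called 4. All 5 proliferation genes rose, Mki67 by 5.02 and Top2a by 4.85. Of 8 brown adipocyte genes 4 fell: Elovl3 by 3.52, Cidea by 2.05, Adipoq by 1.76 and Ucp1 by 1.61. With the resident macrophage score as a covariate, Mmp12 (2.90, adjusted p = 0.0315) and Acp5 (-1.24, adjusted p = 0.00266) still passed in edgeR. The differences were then 0.00 for Trem2 (adjusted p = 0.994), 0.57 for Spp1 (adjusted p = 0.733), 1.12 for Itgax (adjusted p = 0.171) and 0.05 for Cd5l (adjusted p = 0.979, all edgeR). The score itself did not overlap between these groups, at 3.72 to 4.74 without and 5.50 to 6.55 with hormone. The covariate values therefore rest on a slope fitted within groups and carried across that gap, and they cannot separate hormone from the score. The part of the macrophage, monocyte, endothelial, proliferation and adipocyte genes in the members' values was not tested.

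Other genes linked to lipid-associated macrophages were called in both directions, at counts near the shares over all genes, of which 20.3% rose and 22.9% fell. Nothing is read from that split. Of 20 such genes outside the set, 5 rose, among them the scavenger receptor Msr1 by 3.56, the lectin Lgals3 by 2.85 and Capg by 2.45. Another 5 fell, led by the lectin Lgals1, which fell by 1.73, and the list's median was 0.15. In the untreated mice Lgals1 averaged 10.7 log2 CPM, against 0.59 for Msr1, 4.31 for Lgals3, 3.26 for Capg and 3.48 for Cd68. Which cells made these transcripts was not tested. Of 19 genes for the v-ATPase, the lysosome and the MITF/TFE factors, 2 rose, Mitf (0.86) and Atp6v0a1 (0.83), and 7 fell, led by Atp6v0b (-1.18) and Atp6v1d (-0.88). The pump subunit Atp6v0d1, for which Atp6v0d2 is the tissue-restricted alternative, was among those that fell, with a log2 fold change of -0.54 (adjusted p = 0.0117 in edgeR). Of 11 osteoclast genes 4 rose, led by Tnfrsf11a (2.85), Itgb3 (2.61) and Nfatc1 (0.86), and 2 fell. Tnfrsf11a encodes the receptor RANK. The fusion gene Ocstamp was one of the 2 that fell, by 1.92 (adjusted p = 0.000883 in edgeR). Of 6 targets of the sterol-sensing LXR receptors, the cholesterol exporter Abcg1 (1.94) and Mylip (0.74) rose, and Nr1h3 (-1.15) and Lpcat3 (-0.51) fell.

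Among Jag antibody mice, hormone went with 1 called member: Acp5 fell, and none of the 8 tested rose at an adjusted p under 0.05 in edgeR. Of all genes 4.29% rose and 5.21% fell. The untreated mice of this comparison also took part in the contrast that chose the set. At an unadjusted p under 0.05, 1 of the 8 members was higher, and with DESeq2 and with limma on log2(FPKM + 1) the count higher was 0 in each. Acp5 stood at 214, 249, 249, 240 and 281 CPM without hormone and at 105, 94.4, 96.6, 107 and 97.2 CPM with it, with no overlap, and the fitted log2 difference was -1.30 (SE 0.23, adjusted p = 0.000332 in edgeR).

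Trem2 stood at 29.0, 5.57, 3.02, 2.28 and 1.70 CPM in untreated and at 6.00, 30.6, 5.82, 11.9 and 9.09 CPM in hormone-treated Jag antibody mice. The groups overlapped through mouse 6 of the untreated group, at 29.0 CPM. The log2 fold change was 0.61 (SE 0.68, adjusted p = 0.589 in edgeR), and without that mouse it was 2.01 (adjusted p = 0.043 in edgeR). Spp1 had a log2 fold change of 2.01 (adjusted p = 0.174 in edgeR) and Mmp12 one of -1.28 (adjusted p = 0.31 in edgeR). Atp6v0d2 stood at 6.98, 18.6, 6.61, 8.98 and 4.90 CPM with hormone and Gpnmb at 64.4, 171, 49.5, 66.7 and 43.1 CPM. Mouse 6 of the untreated Jag antibody group lay above all 5 of them for Atp6v0d2 and above 4 of 5 for Gpnmb, and its 4 group mates lay below all of them for both genes. The fitted log2 fold changes, with no test, were 0.70 for Atp6v0d2 and 0.66 for Gpnmb. Of the resident macrophage genes 3 of 13 rose, Adgre1 (1.69, adjusted p = 0.038 in edgeR), Mertk (1.10) and Marco, which had few counts, and all 5 proliferation genes rose. Whether the hormone differences differ between the antibodies was not tested, because that test contains the contrast that chose the genes.

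Among hormone-treated mice, none of the 10 members was called between Jag antibody and control mice in edgeR, DESeq2 or limma, and at an unadjusted p under 0.05 in edgeR the count was 0. Of all genes 1.14% were called. Of the 10 log2 fold changes 9 were below 0, with a median of -0.26 against -0.02 over all genes. Atp6v0d2 had a difference of 0.03 (SE 0.71) and Gpnmb one of -0.02 (SE 0.61), whose standard errors leave room for changes of either sign. The lowest adjusted p was 0.484, for Itgax (-1.04, SE 0.56, in edgeR). None of the 5 proliferation genes was called in this comparison in edgeR, while 4 were lower at an unadjusted p under 0.05, and DESeq2 called 2 and limma 4 of them lower.

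At 15 h, 2 of the 10 members were lower in Jag antibody mice, Spp1 and Itgax, while 0.902% of all genes were lower. DESeq2 called 3 members lower, and 444 of all 17079 genes. At an unadjusted p under 0.05 in edgeR, 7 members were lower, while 2052 of all genes differed in either direction. Spp1 stood at 5.57, 674, 228, 4.27 and 31.0 CPM in control and at 6.43, 3.03, 25.9, 4.03 and 11.8 CPM in Jag antibody mice. Control mice 2 and 3 were far above the rest, and the others overlapped the Jag antibody mice. The log2 fold change was -4.21 (SE 1.03, adjusted p = 0.0429 in edgeR). Itgax stood at 2.87, 35.2, 23.4, 1.54 and 8.3 CPM in control and at 2.02, 1.27, 3.93, 0.78 and 2.65 CPM in Jag antibody mice. Control mice 2 and 3 were again highest, and the log2 fold change was -2.74 (SE 0.60, adjusted p = 0.029 in edgeR).

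Trem2 followed at -2.68 (adjusted p = 0.0628 in edgeR), and the median over the 10 members was -2.02 against -0.04 over all genes. The groups overlapped for all 10 members. The same control mice 2 and 3 had the highest resident macrophage scores of their group, 6.44 and 6.00. Cd68 stood at 16.5, 205, 163, 20.3 and 37.7 CPM in the control mice, and the sum of 9 monocyte and neutrophil genes reached 3494 CPM in control against at most 256 CPM in Jag antibody mice. With the macrophage score as a covariate neither gene passed, at an adjusted p of 0.869 for Spp1 and 0.396 for Itgax in edgeR. Neither passed in a fit of these 10 mice alone (adjusted p = 0.359 and 0.354 in edgeR), without the filter on low counts (0.09 and 0.061) or in limma on log2(FPKM + 1) (0.221 and 0.0966), Spp1 being given first. The part of monocytes and neutrophils in these differences was not tested. Without control mice 2 and 3, a setting chosen after seeing these values, no member passed in edgeR, and the differences were -0.41 for Spp1 and -0.99 for Itgax. With mouse 2 alone left out they were -2.69 (adjusted p = 0.534) for Spp1 and -2.05 (adjusted p = 0.275) for Itgax, both in edgeR. Outside the set, Ccr2, the monocyte chemokine receptor, fell by 3.71 (adjusted p = 0.00615 in edgeR) and Msr1 by 3.06 (adjusted p = 0.0352 in edgeR). Ccr2 was also highest in control mice 2 and 3, at 9.28 and 8.45 log2 CPM, against 3.53 to 4.68 in Jag antibody mice. Msr1 had an SD of 2.70 log2 CPM in the control mice. Without control mice 2 and 3, edgeR called 3 of all 17079 genes.

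At 5 d none of the 10 members was called in edgeR, while 8.02% of all genes were. At an unadjusted p under 0.05 the count was 1, DESeq2 called 1 and limma on log2(FPKM + 1) called 0. That gene was Ctsk, at 20.7, 12.2, 59.8, 16.3 and 53.9 CPM in control and at 11.0, 23.6, 10.2, 8.98 and 8.71 CPM in Jag antibody mice. Control mice 3 and 5 were high and the groups overlapped, and the fitted log2 difference was -1.38 (SE 0.52, adjusted p = 0.0944 in edgeR and 0.0374 in DESeq2). Without control mouse 2 the adjusted p in edgeR was 0.0463. Mmp12 was the 1 member whose groups did not overlap, being lower in Jag antibody mice, a pattern that 3.16% of all genes had. It stood at 2.61, 2.08, 1.96, 1.52 and 1.17 CPM in control and 0.428, 0.746, 1.15, 0.564 and 1.12 CPM in Jag antibody mice. Its log2 fold change was -1.20 (SE 0.86, adjusted p = 0.423 in edgeR). Of the resident macrophage genes Folr2 (-2.23) and Timd4 (-3.51) fell, 2 of 13, and 6 of 8 muscle genes fell. With the muscle score as a covariate the count of members called in edgeR was also 0. Over all genes the count in edgeR was 89 with that covariate against 1369 without it. The difference of Ctsk was -0.36 with the muscle score and -0.55 with the macrophage score.

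**Figure D4:**
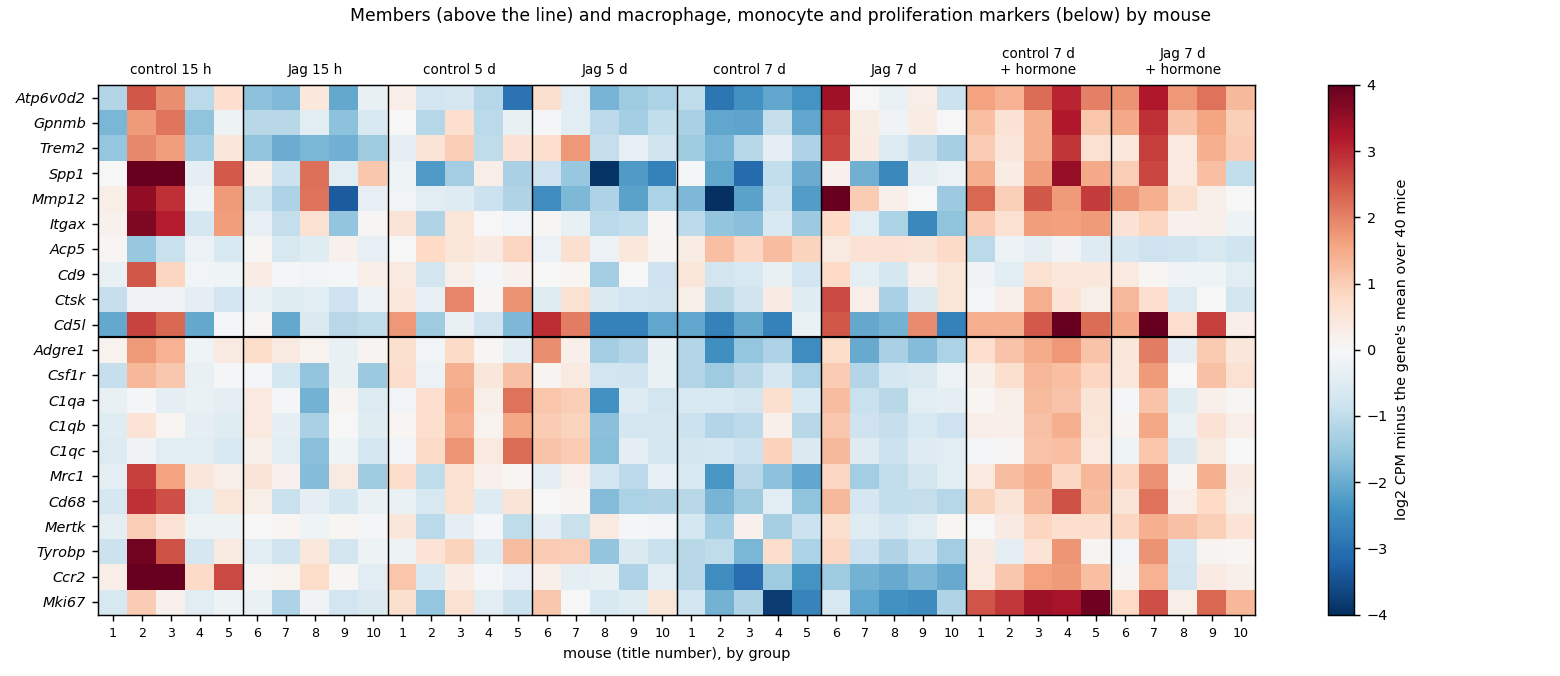
Level of the 10 members (above the line) and of macrophage, monocyte and proliferation genes (below it) in each of the 40 mice, as log2 CPM minus the gene's mean over the 40 mice (colour scale). Control mice 2 and 3 at 15 h and Jag antibody mouse 6 at 7 d are above the mean for at least 8 of the 10 members and 7 of the 9 macrophage genes. Hormone-treated control mice are above it for 7 to 9 members and 7 to 9 macrophage genes, and hormone-treated Jag antibody mice for 5 to 9 and 3 to 9.

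Across the 40 mice the members other than Acp5 went up and down together. Over the 36 pairs of the other 9 genes, Spearman's rho of log2 CPM was 0.33 to 0.89, with a median of 0.62, and after subtracting each group's mean it was 0.32 to 0.81. The 9 pairs with Acp5 had rho from -0.71 to -0.03. These values are descriptive, since all genes of a mouse share its library and tissue piece. Against the resident macrophage score, rho was highest for Trem2 (0.78) and Cd5l (0.78), 0.74 for Gpnmb and 0.53 for Mmp12, and it was -0.48 for Acp5 (40 mice). After subtracting each group's mean, rho was highest for Cd9 (0.72), followed by Gpnmb (0.68) and Trem2 (0.67), and it was 0.23 for Mmp12 and -0.06 for Acp5. Acp5 thus did not act as a macrophage marker in these mice.

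Among 12140 genes compared, Gpnmb was the gene most like Atp6v0d2 (rho 0.89), followed by Adam8 and Slc37a2 (0.87 each), Cd300lb and Slc11a1 (0.86 each). After subtracting group means the closest were Igsf6 (0.87), Cd300lb (0.86), Cd300a (0.84), Btk and Abcg3 (0.83 each). For Gpnmb the closest were Atp6v0d2, Lgmn and Rell1 (0.89 each), Csf2rb2 and Slc37a2 (0.88 each). After subtracting group means, Ptpro (0.89), Cd48, Ctss and Evi2a (0.88 each) were among the closest. Atp6v0d2 and Gpnmb were chosen for a shared rise in some of these mice, so nothing is read from their likeness to each other.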

How the data were processed

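RNA from brown adipose tissue of 40 mice was sequenced as single-end reads of 50 bp, per the labels' protocols. The submitters' processing notes name GSNAP and limma; the counting tool, annotation, strand setting and genome build are not given in the sources used here. The authors deposited raw counts per gene and a table of FPKM values for the same libraries. Identifiers were paired with names for 52403 of 52636 genes.

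In edgeR 4.0.16 (R 4.3.3), the deposited counts went through these steps: genes passing edgeR's default filter over the 8 groups, TMM scaling, 1 quasi-likelihood model over 40 mice, and Benjamini-Hochberg adjustment over 17079 genes, with calls at an adjusted p under 0.05. CPM uses TMM-scaled totals, and log2 CPM adds a prior count of 2. The procedure was checked on simulated counts. That check changed well-counted genes only, with the same spread for every gene and no outlying mice. It therefore does not cover members with few counts or with outlying mice. Alternatives were DESeq2 1.42.0, limma 3.58.1 on log2(FPKM + 1) with a pseudocount of 1, and other scalings, filters, covariates, length and GC corrections, a replicate block and left-out mice.

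The members and lists were chosen with earlier results of these data known. All 10 members are named; from each list at most the 4 called genes with the largest change and a mean log2 CPM of at least 1, plus defining markers. Atp6v0d1, Timd4, Marco, S100a8, S100a9, Csf3r and Cxcr2 are named outside this rule, after their values were seen. The antibody contrast at 7 d without hormone, and Atp6v0d2 and Gpnmb in the hormone comparisons, were not tested because they chose the set or share mice with that choice. The other members were tested in the hormone comparisons, which use the same untreated 7 d mice, so those tests are not independent of the choice. The labels do not say whether the 5 mice of a group were independent of each other beyond being separate samples, so p-values measure the spread between these samples.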

Additional observations from a re-analysis of the deposited data

Results flagged for a closer look

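Of 80 sets of 5 mice (10 genes in 8 groups), 4 held a mouse whose gap to the nearest of the others exceeded Dixon's 95% limit of 0.71 of the range, and chance alone flags about 4. In Jag antibody mouse 6 at 7 d without hormone, Atp6v0d2 stood at 4.43 log2 CPM against 1.29 in the next mouse, and Gpnmb stood at 7.25 against 4.78. In Jag antibody mouse 7 at 5 d, Ctsk stood at 4.57 log2 CPM against 3.47 in the next mouse. In control mouse 5 at 7 d, Cd5l stood at -0.92 log2 CPM against -2.70 in the next mouse.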

How the results depend on the processing

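The 9 member changes called in edgeR kept their sign in every alternative run. Counts of members called moved as follows. At 15 h, 2 were called in the main analysis and 3 in DESeq2. The count was 0 without the low-count filter, in a fit of the 10 mice compared, with the macrophage score as covariate and in limma. It was also 0 without control mice 2 and 3 together, a setting chosen after seeing the data. With single mice left out the count was 0 to 3, and Spp1 lost its call in 7 and Itgax in 6 of 10 such fits. At 5 d DESeq2 called 1 in place of 0, and single mice left out gave 0 to 1. For hormone in control mice the macrophage covariate left 2 of 6, and single mice left out gave 6 in each. With length and GC offsets Ctsk and Cd9, not called in the main analysis, passed as well. For hormone in Jag antibody mice single mice left out gave 1 to 2. With the replicate block, 6 members were called for hormone in control mice and 1 in Jag antibody mice. Same-numbered mice correlated at -0.316 to 0.639 under control and -0.290 to 0.668 under Jag antibody. In each, 1 of 5 correlated best with its own number. These values cannot tell whether same-numbered mice shared a litter, cage or batch, and the labels do not say. Over all genes, 194 were called at 15 h in edgeR against 555 in DESeq2, 26 in limma and 26 without the filter. The count was 0 in the fit of the 10 mice compared. It was 3 with the macrophage covariate and 3 without control mice 2 and 3 together.

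The sign changed, among members not called, under these settings (log2 fold changes). Ctsk at 15 h was 0.000723 with RLE scaling, 0.0214 without the filter, 0.61 with the macrophage covariate, 0.00578 in limma and 0.000661 in DESeq2. Without control mice 2 and 3, Gpnmb was 0.0968, Cd9 0.27, Ctsk 0.23 and Cd5l 0.35 at 15 h. With length and GC offsets Atp6v0d2 was -0.055 at 5 d and -0.13 at 7 d with hormone, and Gpnmb was 0.0115 at 7 d with hormone. Limma gave -0.0273 for Trem2 at 5 d and 0.0504 for Gpnmb at 7 d with hormone. The macrophage covariate gave 0.45 for Gpnmb, 0.17 for Itgax and 0.12 for Cd9 at 5 d. At 7 d with hormone it gave 0.27 for Gpnmb, 0.16 for Trem2, 0.0457 for Ctsk and 0.0619 for Cd5l. For hormone in control mice it gave -0.82 for Cd9 and -0.88 for Ctsk, and in Jag antibody mice -0.52 for Trem2 and -0.87 for Cd5l. In Jag antibody mice the replicate block gave 0.0336 for Mmp12, and with length and GC offsets it gave 0.0713 for Cd9 and 0.0937 for Ctsk. In the untested 7 d contrast without hormone, Spp1 was -0.24 with the macrophage covariate and Itgax -0.0358 without Jag antibody mouse 6. The cause was not tested.

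Single mice left out also changed signs, with these lowest and highest values. For the antibody at 15 h they were -0.0798 to 0.0976 for Ctsk. For the antibody at 5 d they were -0.50 to 0.59 for Atp6v0d2, -0.57 to 0.38 for Trem2 and -0.0564 to 2.55 for Cd5l. For the antibody at 7 d with hormone they were -0.40 to 0.36 for Atp6v0d2, -0.51 to 0.71 for Gpnmb, -0.70 to 0.58 for Trem2, -1.48 to 0.0159 for Spp1, -0.63 to 0.0852 for Ctsk and -1.10 to 0.63 for Cd5l. For hormone in Jag antibody mice they were -0.0227 to 2.01 for Trem2, -1.58 to 0.81 for Mmp12 and -1.04 to 0.46 for Ctsk.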
